A study of Mus musculus with 9 samples.

Results

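The RNA of the AP-1 transcription factors was followed in BV2 cells, an immortalised line of mouse microglia, under oxygen and glucose deprivation (OGD). The set held 10 genes, Fos, Fosb, Fosl1, Fosl2, Jun, Junb, Jund, Atf3, Batf and Maff, each found by its name as 1 of the 54532 genes of the expression table. The 9 libraries fell into 3 groups of 3, control, OGD and OGD with A-485, a compound that blocks the acetyltransferase activity of P300. Control cells were grown in complete medium with 10% serum and carry the label normal, and OGD cells were kept in low-glucose medium with 4% serum in a chamber with 4% oxygen. The third group received A-485 as well as OGD, and no group received A-485 alone. In the experiments that lead up to the sequencing OGD lasted 24 h and A-485 was given at 50 μM from its start, and neither figure is repeated for these libraries. Oxygen, glucose and serum differed together between control and OGD, so their parts cannot be told apart. The labels do not say that the libraries of a group came from separate cultures, so p-values measure the spread between these libraries, which may be technical, in 1 cell line.

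AP-1 is a dimer of basic leucine zipper proteins. A JUN protein pairs with another JUN protein, with a FOS protein or with relatives of the ATF, BATF and MAF groups, and the pair decides which DNA sites are bound and how strongly genes are activated. Several of the genes are immediate-early genes, transcribed within minutes of a stimulus by transcription factors already present in the cell, and in microglia and macrophages AP-1 acts beside NF-κB on inflammatory genes.

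Between 12593250 and 16091038 reads per library fell on genes. Levels are given as FPKM, read counts scaled to gene length and to 1 divisor per library, so that levels of different genes can be compared. On a gene of 1 kb, 1 read was worth between 0.0618 and 0.0786 FPKM. The divisor was above the reads on genes in every control and OGD library and below them in every OGD + A-485 library. It thus differed from the depth on genes in a way that went with the groups, and scaling to library totals is among the alternatives. Of 12 microglial markers 11 had a mean of at least 1 FPKM, the exception being P2ry12. Aif1 and Tmem119 were just above that limit, at 1.36 and 1.35 FPKM, while Cd68 averaged 343 FPKM and Tyrobp 132 FPKM. The summed level of the 12, to which Cd68 and Tyrobp gave the most, ran from 471 to 488 FPKM in control and from 603 to 622 FPKM in OGD. In OGD + A-485 it ran from 1080 to 1109 FPKM. This sum moved with the groups, and its part in the AP-1 results was not tested. No marker of neurons, astrocytes or oligodendrocytes reached 1 FPKM, and Aqp4, Gja1, Mog and Mag were at 0 in every library. In bulk RNA, fewer cells with a transcript and less of it per cell cannot be told apart.

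Compared with control, OGD libraries held more RNA of Junb, Atf3, Maff and Fosl2 and less of Fos and Batf. A gene was called when limma on log2(FPKM + 0.1) gave an unadjusted p under 0.01 and a log2 fold change beyond 0.5 in either direction. By this rule 4 of the 9 members tested were called higher and 2 lower, while the shares among the 16123 genes tested were 11.2% higher and 9.81% lower. Fosb, with a mean under 0.2 FPKM, was not tested. With an adjusted p under 0.05 and no limit on the fold, 8 of the 9 members passed, among 45.3% of all genes. The median log2 fold change was 0.41 over the 9 members and 0.01 over all genes tested.

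Against OGD alone, libraries of OGD + A-485 held less RNA of Junb, Jund, Fosl1 and Batf and more of Fos. Here 1 member was called higher and 4 lower, beside 12.2% and 13.4% of all genes. All 9 tested members passed an adjusted p under 0.05, among 49.8% of all genes, and the median log2 fold change was -0.18 over the members and 0.01 over all genes. Both comparisons share the OGD libraries, so a chance deviation of those libraries enters the 2 comparisons with opposite sign, and the values of each member are given side by side.

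**Figure D1:**
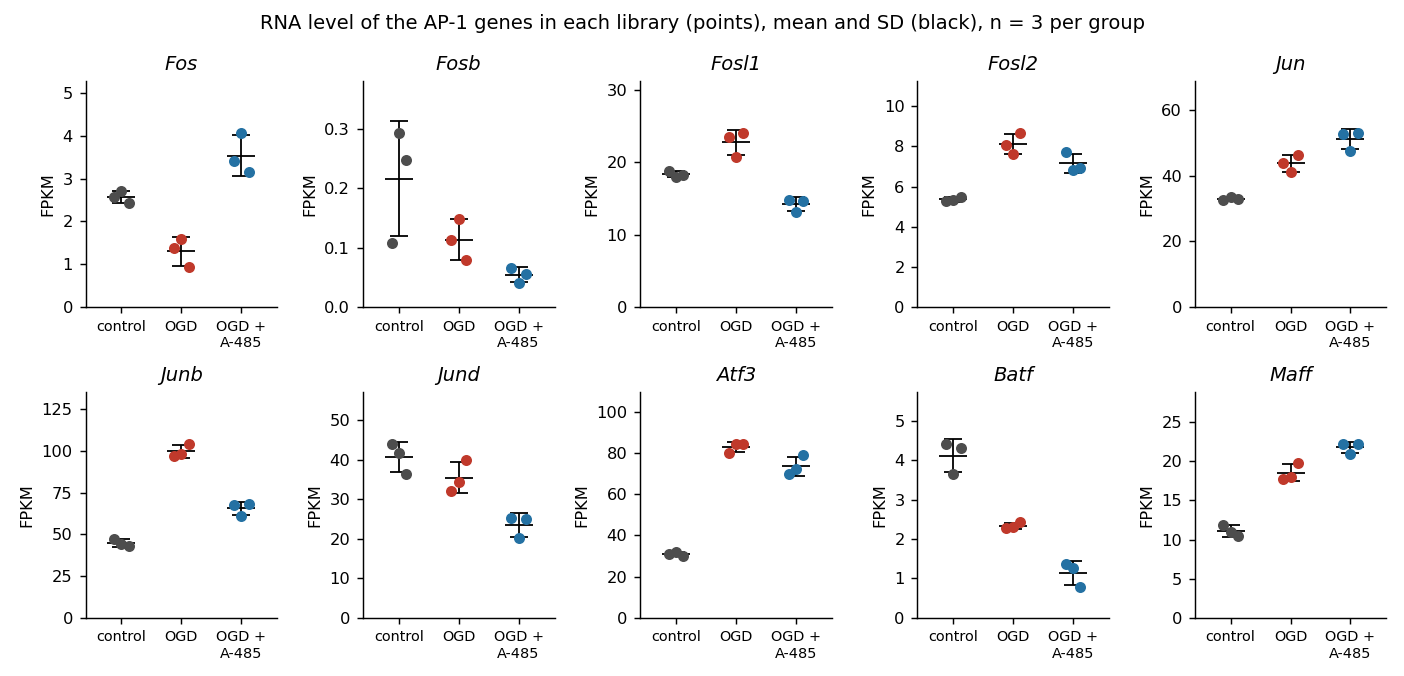
FPKM of the 10 AP-1 genes (y axis, from 0, a scale of its own in each panel) in the 3 libraries of control, OGD and OGD + A-485 (points), with the mean and SD in black. Junb and Atf3 lie highest in OGD, Jun and Maff highest in OGD + A-485, Fos lowest in OGD, and Batf and Jund lowest in OGD + A-485.

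Of the JUN and FOS proteins, those of the JUN family can bind DNA without a FOS partner, and JUNB comes from an inducible gene. Junb (ENSMUSG00000052837) lies on the minus strand of chromosome 8, chr8:84974484-84978718 in GRCm38, and its protein-coding transcript has 1 exon. It was at 47.4, 44.1 and 43.1 FPKM in the control libraries, at 97.0, 97.9 and 104 FPKM in OGD, and at 67.5, 61.2 and 68.3 FPKM in OGD + A-485. All OGD libraries were above all libraries of both other groups, and those of OGD + A-485 stood between OGD and control. The mean rose 2.22-fold in OGD, a log2 fold change of 1.15 ± 0.06 (SE, adjusted p in limma 1.51e-06). With A-485 it was 1.52-fold lower than in OGD, a log2 fold change of -0.60 ± 0.06 (adjusted p in limma 2.94e-05), and 1.46-fold higher than in control. That last call, at a log2 fold change of 0.55, fell under the limit of 0.5 when libraries were quantile normalised (0.42) or scaled to their totals (0.43). Of the 2301 exon bases of Junb, 173 (7.52%) also lie in exons of Prdx2 on the other strand, outside the protein-coding transcript of Junb. Prdx2 was at 40.0, 38.6 and 62.9 FPKM in the 3 groups, and since counting by strand is not stated, reads on these bases cannot be assigned.

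Jun (ENSMUSG00000052684, chr4:95049034-95052222, minus strand, 1 exon) encodes c-JUN, the founding member of the family and the main substrate of the JNK kinases. Its level was 32.6, 33.3 and 32.9 FPKM in control, 43.8, 41.2 and 46.3 FPKM in OGD, and 52.8, 47.6 and 52.9 FPKM in OGD + A-485. In the deposited FPKM the 3 groups did not overlap and stood in the order control, OGD, OGD + A-485, an order unlike that of Junb. The OGD mean was 1.33-fold the control mean (log2 fold change 0.41, adjusted p in limma 0.000350), and the mean with A-485 was 1.17-fold the OGD mean (0.22, adjusted p 0.00877), both under the fold limit of the call. The step from OGD to OGD + A-485 shrank to 0.09 under quantile normalisation (unadjusted p in limma 0.0727), and the step from control to OGD to 0.23 with the median change of the 50 neighbouring genes on the chromosome subtracted (unadjusted p in limma 0.0184). Over both steps Jun rose 1.55-fold from control to OGD + A-485 (log2 fold change 0.63 ± 0.06, adjusted p in limma 1.32e-05). With this regional median subtracted, the change over both steps was 0.4996 and no longer past the limit. The antisense gene Junos shares 232 of the 3189 exon bases of Jun and was at 0.865, 2.12 and 1.66 FPKM in the 3 groups.

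Jund (ENSMUSG00000071076, chr8:70698949-70700616, plus strand, 1 exon) encodes the JUN protein usually described as constitutive, present in resting cells. Control libraries held 44.1, 41.7 and 36.5 FPKM, OGD libraries 32.2, 34.4 and 40.0 FPKM, and OGD + A-485 libraries 25.4, 20.1 and 25.0 FPKM. Control and OGD overlapped, and every library with A-485 was below all others. OGD against control gave a log2 fold change of -0.20 ± 0.11 and was not called (adjusted p in limma 0.197), and was -0.13 without the first OGD library. With A-485 Jund fell 1.51-fold below OGD, a log2 fold change of -0.60 ± 0.11 (adjusted p in limma 0.00224), and 1.73-fold below control (-0.80, adjusted p 0.000313). Gm11175, an antisense gene inside Jund, was at 0 FPKM in every group. The call against OGD was lost without the second OGD + A-485 library, where the log2 fold change was -0.49.

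Of the Jun genes, Junb and Jund were called lower with A-485 against OGD and Jun was not. Jund is left out here, and the stretches just before the transcription starts of Jun and Junb are shown. Each is the last 100 bases before the start in RefSeq (GRCm38.p6), read 5′ to 3′ on the strand of the gene, at chr4:95052223-95052322 for Jun and chr8:84978749-84978848 for Junb. Capitals mark TGACATCA, a variant of the AP-1 and CRE sites.

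Jun: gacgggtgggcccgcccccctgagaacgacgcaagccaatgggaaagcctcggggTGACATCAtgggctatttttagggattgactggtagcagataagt
Junb: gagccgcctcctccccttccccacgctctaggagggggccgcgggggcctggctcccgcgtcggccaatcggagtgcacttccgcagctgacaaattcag

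The match in Jun ran from base 45 to base 38 before the start, and the Junb stretch held no searched motif. TGACG, the core of the cAMP response element (CRE), stood in Junb from base 106 to base 102 before the start, just outside the stretch shown. Among 32841 starts in the table, 2.93% held TGACATCA and 17.8% held TGACG within 250 bases before the start, on either strand.

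FOS proteins do not form dimers with each other and bind DNA with a JUN partner. Fos (ENSMUSG00000021250, chr12:85473890-85477273, plus strand, 4 exons in its protein-coding transcript) encodes c-FOS, the textbook immediate-early factor. It was low throughout, at 2.58, 2.72 and 2.44 FPKM in control, 1.37, 1.60 and 0.937 FPKM in OGD, and 3.40, 4.06 and 3.16 FPKM in OGD + A-485. The 3 groups did not overlap, with OGD lowest and OGD + A-485 highest. These levels rest on 81 to 93 reads per control library, 31 to 49 in OGD and 107 to 151 with A-485. Fos fell 1.98-fold in OGD (log2 fold change -0.96 ± 0.18, adjusted p in limma 0.00218). It was 2.72-fold higher with A-485 than in OGD (1.40 ± 0.18, adjusted p in limma 0.000205) and was the member called higher there. Against control the mean with A-485 was 1.37-fold, with a log2 fold change of 0.44 that was not called (adjusted p in limma 0.0661).

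The 100 bases before the Fos start, chr12:85473790-85473889 on the plus strand (RefSeq, GRCm38.p6), are shown because Fos was called in the direction opposite to Junb in both comparisons. Capitals mark TGACG and TATAAA, the TATA motif.

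Fos: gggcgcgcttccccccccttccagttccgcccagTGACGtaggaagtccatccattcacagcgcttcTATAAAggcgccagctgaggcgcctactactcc

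TGACG stood from base 66 to base 62 before the start, and a further TGACG from base 129 to base 125. TATAAA, found in 12.4% of all starts in the table, stood from base 33 to base 28 and was at no other member start searched. Fosl1 had no start to search. Over the 9 members with a RefSeq start, which have 11 starts, TGACG was found at 7 starts of 6 members, Fos, Fosb, Junb, Atf3, Batf and Maff. The AP-1 site TGANTCA, in which N is any base, and the CArG box, the site bound by SRF, were at none of the 11 starts within 250 bases, beside 6.75% and 1.47% of all starts. Bases further from the starts were not searched, so sites lying there would be missed.

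Fosl1 (ENSMUSG00000024912, chr19:5447703-5455945, plus strand) encodes FRA1, which lacks the activation domain of c-FOS. It was the most abundant Fos family gene in every library, at 18.8, 18.0 and 18.2 FPKM in control, 23.4, 20.7 and 23.99 FPKM in OGD, and 14.8, 13.1 and 14.7 FPKM in OGD + A-485. The groups did not overlap, and the libraries with A-485 were the lowest. In OGD the mean was 1.24-fold that of control, and its log2 fold change of 0.31 did not reach the limit of the call (adjusted p in limma 0.00561). With A-485 Fosl1 fell 1.60-fold below OGD, a log2 fold change of -0.68 ± 0.07 (adjusted p in limma 4.61e-05). Against control the log2 fold change was -0.37, not called, and -0.51 and called once the regional median was subtracted.

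Fosl2 (ENSMUSG00000029135, chr5:32135801-32157842, plus strand) encodes FRA2, the other FOS relative without that activation domain. Its level was 5.30, 5.31 and 5.50 FPKM in control, 8.08, 7.64 and 8.66 FPKM in OGD, and 7.71, 6.81 and 6.94 FPKM in OGD + A-485. Control lay below all other libraries, and OGD and OGD + A-485 overlapped. Fosl2 rose 1.51-fold in OGD (log2 fold change 0.59 ± 0.07, adjusted p in limma 0.000127), and OGD + A-485 against OGD, at -0.18 ± 0.07, was not called (adjusted p 0.0494). The log2 fold change of OGD + A-485 against control was 0.41, also not called.

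Fosb (ENSMUSG00000003545, chr7:19302696-19310051, minus strand) encodes FOSB, known from neurons for its long-lived splice form. It was barely detected, at 0.108, 0.292 and 0.247 FPKM in control, 0.113, 0.148 and 0.0797 FPKM in OGD, and 0.0658, 0.0406 and 0.0555 FPKM in OGD + A-485. Control and OGD overlapped, and the libraries with A-485 were below all others. The 3 groups held 60, 28 and 15 reads in all on this gene. At this depth its levels are given as a description, and the main fit did not test it. An alternative fit without a filter on low values called it lower in OGD + A-485 against control, on these few reads.

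ATF3, BATF and MAFF pair with AP-1 proteins or share their sites. Atf3 (ENSMUSG00000026628, chr1:191170296-191218039, minus strand) encodes a stress-induced repressor and activator that restrains inflammatory genes in macrophages. It stood at 30.9, 31.8 and 30.0 FPKM in control, 80.2, 84.5 and 84.4 FPKM in OGD, and 69.7, 72.1 and 78.9 FPKM in OGD + A-485. Libraries of both OGD groups were far above control, and those with A-485 lay just below those without. Atf3 rose 2.69-fold in OGD, the largest rise among the members (log2 fold change 1.42 ± 0.05, adjusted p in limma 3.43e-07). With A-485 the log2 fold change against OGD was -0.18 ± 0.05, not called (adjusted p 0.0183), and under quantile normalisation it was -0.33, also not called. Atf3 was still 2.38-fold above control (1.25, adjusted p in limma 1.51e-07). Gm24748, a small RNA gene inside the Atf3 locus on the other strand, was at 0.231, 1.58 and 0.211 FPKM in the 3 groups.

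Batf (ENSMUSG00000034266, chr12:85686669-85709087, plus strand) encodes a small factor without an activation domain that binds with JUN proteins and IRF factors in immune cells. Its values were 4.42, 3.64 and 4.30 FPKM in control, 2.29, 2.29 and 2.43 FPKM in OGD, and 1.36, 1.26 and 0.789 FPKM with A-485. The groups did not overlap, and Batf was the one member called lower in all 3 comparisons. Reads per library were few, 73 to 98 in control, 41 to 48 in OGD and 16 to 28 with A-485. Batf fell 1.76-fold in OGD (log2 fold change -0.79 ± 0.18, adjusted p in limma 0.00662) and a further 2.05-fold with A-485 (-1.01 ± 0.18, adjusted p 0.00148, and -0.65 with a pseudocount of 1). From control to OGD + A-485 the mean fell 3.62-fold, a log2 fold change of -1.80 (adjusted p in limma 3.20e-05).

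Maff (ENSMUSG00000042622, chr15:79346621-79359076, plus strand) encodes a small MAF protein, which has no activation domain and also pairs with NRF2. It was at 11.9, 10.96 and 10.5 FPKM in control, 17.8, 18.0 and 19.8 FPKM in OGD, and 22.2, 20.96 and 22.2 FPKM in OGD + A-485. The groups did not overlap and stood in the same order as for Jun. Maff rose 1.67-fold in OGD (log2 fold change 0.73 ± 0.06, adjusted p in limma 2.31e-05). The further log2 difference of 0.23 with A-485 was not called (adjusted p 0.0119), and the rise from control to OGD + A-485 was 1.96-fold (0.97, adjusted p in limma 1.80e-06).

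Maff has 3 starts in RefSeq, and the stretches before the middle and the most downstream are shown because they carry a full CRE-type site and its variant, the latter also seen before Jun. They lie inside the gene, outside its annotated exons, at chr15:79347420-79347519 and chr15:79348302-79348401 on the plus strand (GRCm38.p6). Capitals mark TGACGTCA in the first, and an NF-κB site and TGACATCA in the second.

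Maff middle start: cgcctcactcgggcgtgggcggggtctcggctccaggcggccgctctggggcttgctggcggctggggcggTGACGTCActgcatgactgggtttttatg
Maff downstream start: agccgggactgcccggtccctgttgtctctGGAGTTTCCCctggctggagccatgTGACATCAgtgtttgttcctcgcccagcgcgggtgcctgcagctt

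TGACGTCA, which contains TGACG on both strands, occurred in 1.55% of all starts and at no other member start searched. TGACATCA stood from base 45 to base 38 before both the Jun start and the downstream Maff start. NF-κB sites were found at 4 of the 11 member starts, in Fos, Fosb, Fosl2 and Maff, beside 7.25% of all starts. ACGTG, 1 form of the core of the hypoxia response element, was at 2 starts, of Jund and Maff, beside 16.6% of all starts. The form GCGTG was not searched and is not marked, so sites with it are missed. The Jund start used, at base 70697739, lies before the counted gene, which begins at base 70698949. Each searched motif was sought on both strands, and the matches are a description of letters, since binding was not measured.

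**Figure D2:**
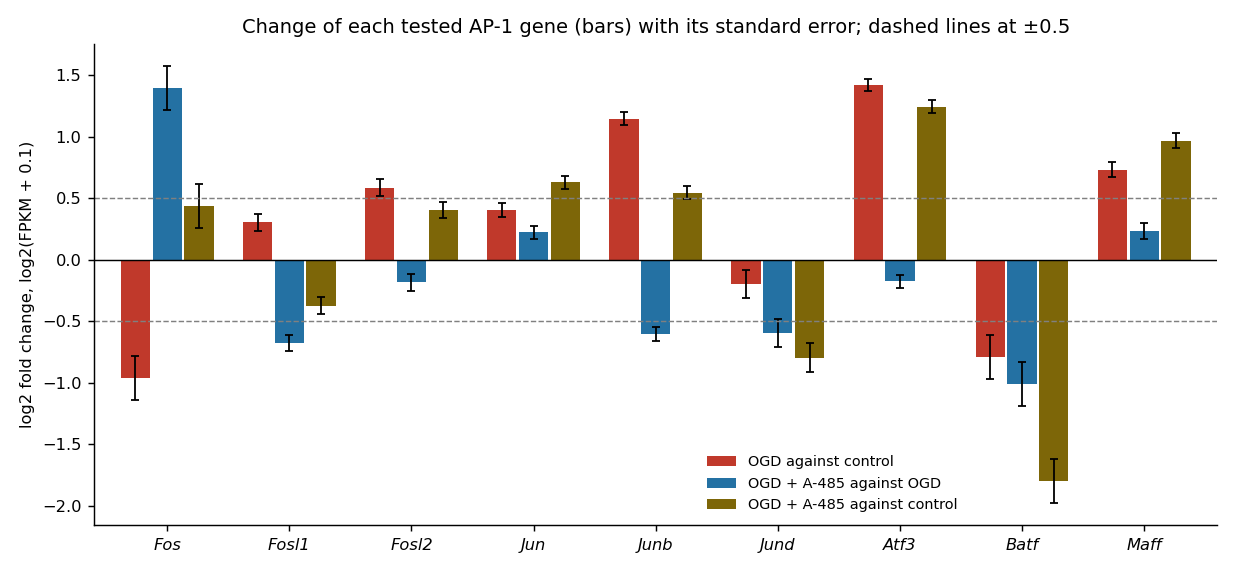
Log2 fold changes on the log2(FPKM + 0.1) scale (y axis) of the 9 tested AP-1 genes (x axis) in OGD against control (red), OGD + A-485 against OGD (blue) and OGD + A-485 against control (brown), with 1 standard error and dashed lines at the fold limits of 0.5. Atf3 and Junb have the tallest red bars at 1.42 and 1.15, Fos the tallest blue bar at 1.40, and Batf is below 0 in all 3.

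From control to OGD + A-485, 4 members were called higher (Atf3, Maff, Jun and Junb) and 2 lower (Batf and Jund), beside 17.0% and 16.6% of all genes. With an adjusted p under 0.05, 8 of the 9 members passed, among 56.6% of all genes. The split over all genes in this comparison, 2747 higher and 2684 lower, became 2253 higher and 3349 lower when libraries were scaled to their totals. In this comparison the 3 libraries of each group did not overlap for any of the 10 members. Libraries of the groups overlapped for Jund and Fosb in OGD against control, and for Fosl2 in OGD + A-485 against OGD. How many of all genes had no overlap in each comparison was not counted, so these numbers have no background beside them.

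The order of the levels per length changed between groups. In control, Junb (44.9 ± 2.23 FPKM, SD, n = 3) and Jund (40.8 ± 3.84 FPKM) came first and overlapped, followed by Jun (32.9 ± 0.385 FPKM) and Atf3 (30.9 ± 0.922 FPKM). Fosl1, Maff, Fosl2, Batf, Fos and Fosb followed without overlap between neighbours in that order. In OGD the order was Junb (99.7 ± 3.91 FPKM), Atf3 (83.1 ± 2.45 FPKM), Jun, Jund, Fosl1, Maff, Fosl2, Batf, Fos and Fosb, with no overlap between neighbours. In OGD + A-485, Atf3 (73.6 ± 4.79 FPKM) stood above Junb (65.7 ± 3.88 FPKM), Jund and Maff overlapped, and Fos (3.54 ± 0.470 FPKM) stood above Batf (1.14 ± 0.306 FPKM). In OGD the level of Fos was at percentile 29.4 of the tested genes and that of Jun at percentile 93.1, so the genes of the textbook FOS and JUN dimer were far apart in level.

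A share within a library does not depend on how libraries were scaled to each other. The summed level of Jun, Junb and Jund was 119 ± 5.78 FPKM in control, 179 ± 9.98 FPKM in OGD and 140 ± 9.84 FPKM with A-485 (SD, n = 3). Junb made up 37.9% ± 0.707 of this sum in control, 55.7% ± 0.928 in OGD and 46.8% ± 0.589 with A-485. Jund, the constitutive member, made up 34.3% ± 1.63, 19.8% ± 1.20 and 16.7% ± 0.970 in the same order. The share of Jun was 27.8% ± 1.48 in control, 24.5% ± 0.806 in OGD and 36.4% ± 0.404 with A-485. Jund thus came close to Junb in control, Junb alone held over 50% in OGD, and Jun was second to it with A-485.

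Fos, Fosb, Fosl1 and Fosl2 summed to 26.5 ± 0.241 FPKM in control, 32.2 ± 1.90 FPKM in OGD and 24.9 ± 0.985 FPKM with A-485. Fosl1 made up 69.2% ± 0.910 of it in control, 70.4% ± 1.36 in OGD and 56.8% ± 2.32 with A-485, and Fosl2 20.3% ± 0.510, 25.2% ± 0.632 and 28.7% ± 0.918. The share of Fos was 9.74% ± 0.552 in control, 4.08% ± 1.27 in OGD and 14.3% ± 2.34 with A-485. The FRA genes, Fosl1 and Fosl2, thus held most Fos family transcripts in each group. The Fos family sum was 22.4% ± 0.993 of the Jun family sum in control, 18.0% ± 0.924 in OGD and 17.8% ± 0.814 with A-485.

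Of 24 comparisons of these shares, 20 had no overlap between the groups and p = 0.1 in a two-sided exact permutation test, the smallest p that 3 against 3 libraries allow (adjusted p 0.12 over the 24). The exceptions were the share of Fosl1 in OGD against control (exact p = 0.3), the share of Fosb in OGD against control and in OGD + A-485 against OGD (exact p = 0.2 each), and the ratio of the families in OGD + A-485 against OGD (exact p = 0.7). None of these tests could pass 0.05 in this design.

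**Figure D3:**
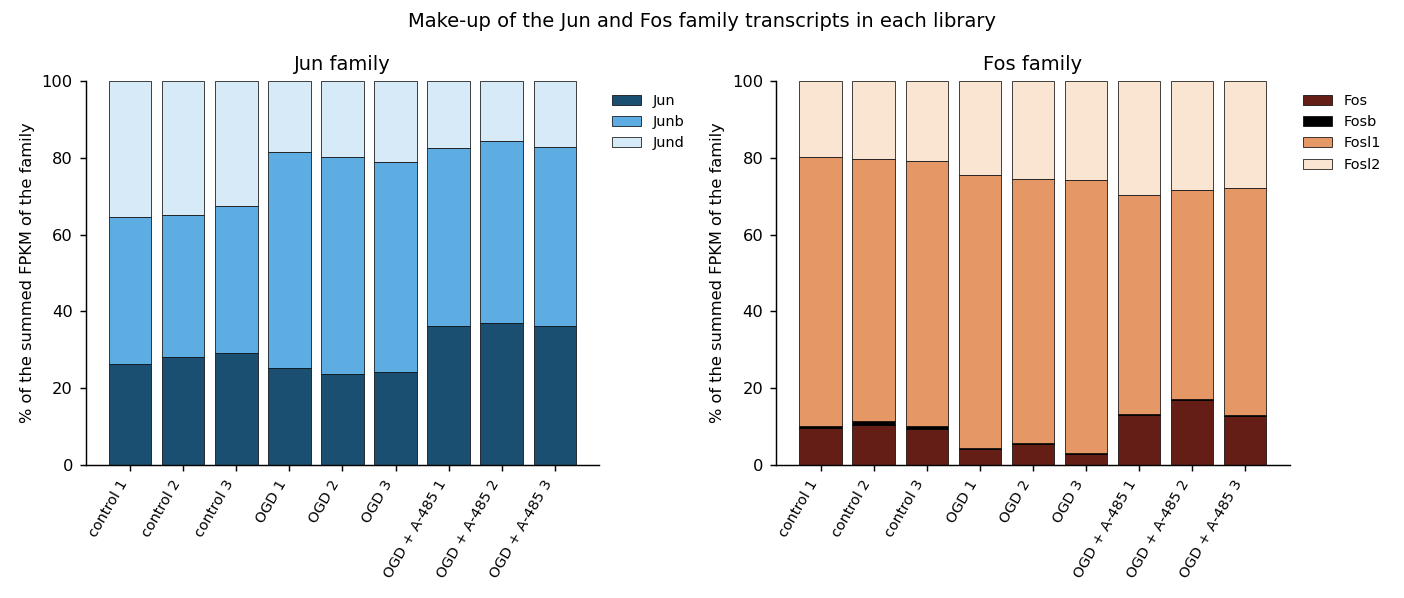
Share of each gene in the summed FPKM (y axis, %) of the Jun family (left) and the Fos family (right) in each of the 9 libraries (bars). Junb takes 54.7% to 56.4% of the Jun family in the OGD libraries against 37.0% to 38.3% in control, and Fos takes 2.78% to 5.32% of the Fos family in OGD against 12.7% to 17.0% in OGD + A-485.

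The other genes of the pathway were read from lists named here by role, the lists having been chosen with earlier results of these data known. Among 25 tested bZIP partners and relatives, 3 were called higher in OGD (Ddit3, Creb5 and Nfil3) and 3 lower (Cebpa, Batf3 and Cebpd), near the background of all genes. Ddit3, which encodes the stress factor CHOP, rose from 3.81 ± 0.431 to 8.65 ± 0.749 FPKM (log2 fold change 1.17), and Batf3, the close relative of Batf, fell from 9.21 ± 0.961 to 5.61 ± 0.175 FPKM (-0.70). With A-485 against OGD 8 of the 25 (32%) were called higher and 4 (16%) lower, beside 12.2% and 13.4% of all genes. Maf, a large MAF factor of macrophages, rose from 1.10 ± 0.251 to 8.86 ± 0.618 FPKM (2.92 ± 0.14) and Cebpa, a factor of the myeloid lineage, from 1.28 ± 0.583 to 6.80 ± 1.04 FPKM (2.43 ± 0.32). Nfil3 fell from 43.2 ± 1.47 to 20.1 ± 1.33 FPKM (-1.10 ± 0.05), Creb5 from 3.97 ± 0.220 to 2.19 ± 0.102 FPKM (-0.83 ± 0.09), and Batf3 and Crem were the other 2 called lower. The table's own column of transcription factor families names 48 bZIP genes, the 10 members among them, and 28 of the others were tested. In OGD 3 were called higher (10.7%) and 1 lower (3.57%), beside 11.2% and 9.81% of all genes. With A-485 against OGD 9 were called higher (32.1%) and 4 lower (14.3%). These 28 were not kept apart from the 25 above, so genes can be counted in both.

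The MAP kinases carry signals to JUN and FOS proteins and to their genes. Of 31 tested genes of this cascade 3 were called higher in OGD (Map2k6, Mapk8ip3 and Mapk3) and 3 lower (Map2k3, Mapk11 and Mapk14), with a median log2 fold change of 0.03, and 2 higher and 3 lower with A-485, with a median of -0.13. These are shares of 9.68% and 9.68% in OGD and of 6.45% and 9.68% with A-485, near or below those of all genes (11.2% and 9.81%, then 12.2% and 13.4%). Map2k6, an activator of p38, rose from 2.54 ± 0.160 to 5.59 ± 0.960 FPKM in OGD and was at 1.80 ± 0.235 FPKM with A-485. Map2k3, which encodes the other main p38 activator, fell from 26.6 ± 0.895 to 14.5 ± 1.71 FPKM in OGD (log2 fold change -0.88). Mapk8ip3, a scaffold of the JNK cascade, rose from 4.76 ± 0.213 to 8.97 ± 0.862 FPKM in OGD. Mapk14, the main p38 gene, was at 28.3 ± 0.362 FPKM in control, 19.6 ± 0.521 FPKM in OGD and 34.4 ± 2.20 FPKM with A-485 (0.80 ± 0.05 against OGD). Mapk11, another p38 gene, fell from 3.86 ± 0.312 FPKM to 2.25 ± 0.384 FPKM in OGD (-0.76) and to 0.468 ± 0.142 FPKM with A-485 (-2.07 ± 0.21 against OGD). Map3k11, which encodes a kinase upstream of JNK, rose from 9.13 ± 1.12 to 14.4 ± 0.942 FPKM with A-485, and Map3k5 was the remaining gene called lower there.

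Of 14 tested activators and partners that act on immediate-early promoters, 1 was called in OGD, Srf, which was lower (7.14%, beside 9.81% of all genes). SRF is the factor that binds the serum response element of Fos, and bases more than 250 before the Fos start were not searched for its site. Srf moved from 36.9 ± 0.948 FPKM in control to 23.2 ± 0.481 FPKM in OGD and 35.2 ± 2.88 FPKM with A-485, a log2 fold change of -0.67 ± 0.06 (adjusted p in limma 2.74e-05) followed by one of 0.60 ± 0.06 (adjusted p 3.95e-05). With A-485 the ETS factor Elk3, from 12.3 ± 0.225 to 5.69 ± 0.273 FPKM, and Mef2c, from 13.1 ± 0.966 to 7.30 ± 0.252 FPKM, were called lower against OGD. Of this list 7.14% were called higher and 14.3% lower with A-485, beside 12.2% and 13.4% of all genes. Of 9 tested genes for the turnover and export of JUN and FOS proteins, 1 was called higher and 1 lower in each of these 2 comparisons. These shares of 11.1% are near those of all genes, 11.2% and 9.81% in OGD, then 12.2% and 13.4% with A-485. Itch, a ubiquitin ligase of JUN proteins, rose from 20.7 ± 1.06 to 29.9 ± 1.97 FPKM in OGD, and Trib1, an adaptor of the ligase COP1, fell from 5.51 ± 0.603 to 3.20 ± 0.337 FPKM. Cop1 itself rose from 2.83 ± 0.316 to 5.36 ± 0.153 FPKM with A-485, where Trib2 was called lower.

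Among 26 other immediate-early and early response genes tested, 14 were called higher and 2 lower in OGD, with a median log2 fold change of 0.53, and 3 higher and 9 lower with A-485, with a median of -0.20. The shares were 53.8% higher and 7.69% lower in OGD, beside 11.2% and 9.81% of all genes, and 11.5% higher and 34.6% lower with A-485, beside 12.2% and 13.4%, so the genes called higher with A-485 were at the share of all genes. Ier3, a survival gene of the stress response, rose from 232 ± 13.8 to 706 ± 14.3 FPKM in OGD (log2 fold change 1.61) and Myc from 0.862 ± 0.123 to 2.83 ± 0.251 FPKM (1.61). Klf2, from 2.74 ± 0.384 to 1.60 ± 0.609 FPKM, and Nr4a1, from 4.96 ± 0.246 to 3.35 ± 0.357 FPKM, were the 2 called lower. Klf2, which encodes a zinc finger factor of quiescent myeloid cells, was then 6.44 ± 0.991 FPKM with A-485, a log2 fold change of 1.99 ± 0.24 against OGD. Fos and Klf2 were thus both lower in OGD and higher with A-485, while most called genes of this list were higher in OGD. With A-485 Klf10 rose from 3.87 ± 0.133 to 11.04 ± 0.243 FPKM, and Egr3, from 3.03 ± 0.389 to 0.658 ± 0.155 FPKM, and Plk2, from 89.1 ± 5.60 to 34.6 ± 1.52 FPKM, had the largest falls.

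Genes whose promoters or enhancers carry AP-1 sites in textbooks were read as a list of 35, of which 29 were tested. In OGD 20 were called higher and 2 lower, with a median log2 fold change of 0.95, and with A-485 against OGD 1 was called higher and 15 lower, with a median of -0.67. The shares were 69.0% and 6.90% in OGD, beside 11.2% and 9.81% of all genes, and 3.45% and 51.7% with A-485, beside 12.2% and 13.4%. Mmp12, the macrophage elastase, rose from 1.55 ± 0.0929 to 29.0 ± 1.89 FPKM in OGD (4.14 ± 0.07), and Ptgs2, the inducible cyclooxygenase, from 17.4 ± 0.160 to 185 ± 29.9 FPKM (3.39 ± 0.10). The 2 called lower were Slc7a11, the cystine transporter, from 9.85 ± 0.884 to 4.91 ± 0.622 FPKM, and Gclm, of glutathione synthesis, from 6.97 ± 0.193 to 3.98 ± 0.323 FPKM. With A-485 the cytokine genes Il6, from 5.12 ± 1.41 to 0.401 ± 0.109 FPKM (-3.37 ± 0.21), and Lif, from 4.37 ± 0.273 to 0.417 ± 0.123 FPKM (-3.13 ± 0.18), had the largest falls of the list. Plaur, the urokinase receptor, was the one called higher, from 44.0 ± 3.21 to 70.4 ± 3.40 FPKM. The list was written with the results known and most of its genes also respond to other factors, so its counts are a description beside the members.

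**Figure D4:**
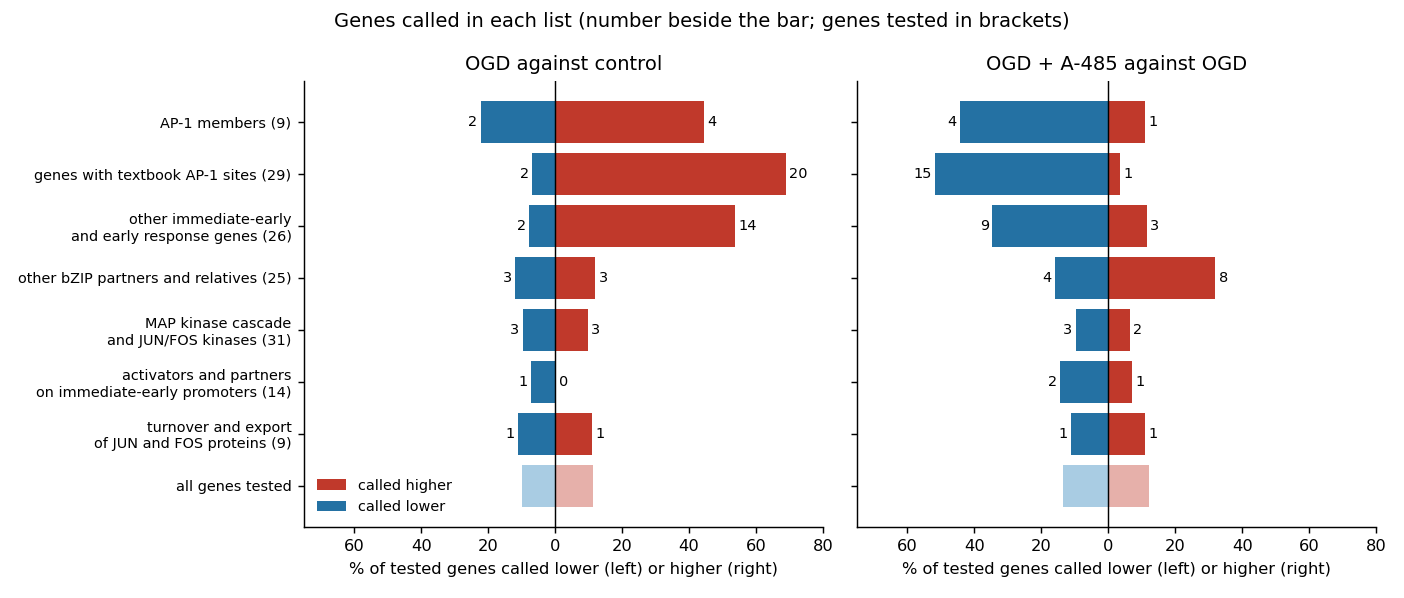
Percent of the tested genes of each list (x axis, lower to the left and higher to the right of 0) called in OGD against control (left) and OGD + A-485 against OGD (right), with the number called beside each bar, the number tested in brackets and all 16123 genes in pale bars at the bottom. Of the genes with textbook AP-1 sites 69.0% are called higher in OGD and 51.7% lower with A-485, and the MAP kinase list stays near the pale bars.

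For each tested member the genes with the most similar profile were sought among 10206 genes that averaged at least 1 FPKM, were no member and had no provisional name (Gm, Rik or accession style), by the root-mean-square difference of log2(FPKM + 0.1) over the 9 libraries after each profile was centred on its mean. For Jun the nearest were Mkl1, with a difference of 0.0349, and Capns1 with 0.0370, beside a root-mean-square of 0.267 for the Jun profile itself. Mkl1 was at 16.1, 21.9 and 25.7 FPKM in control, OGD and OGD + A-485. For Junb they were Itgax (0.0492), at 8.27, 18.6 and 11.7 FPKM, and Cyp4f16 (0.0555), and for Jund Ngrn (0.0535) and Ppp1r35 (0.0816). Atf3 was followed most closely by Tnfrsf9 (0.0554), at 68.7, 178 and 157 FPKM, and by Lix1 (0.0779). The nearest to Fosl1 were Slc41a1 (0.0565) and Rala (0.0569), to Fosl2 Maml1 (0.0459) and Sirt2 (0.0510), and to Maff Lasp1 (0.0579) and Fam102a (0.0639). The profiles of Batf and Fos, which had the fewest reads among the tested members, had no neighbour as close. Their own root-mean-squares were also large, 0.762 and 0.616, beside 0.636 for Atf3 and 0.254 for Fosl2, and the differences were not scaled to them. Batf was nearest to the cell cycle gene Ccnb1 (0.135), at 61.9, 33.7 and 17.1 FPKM, and to Trip13 (0.168), and Fos to Gpr176 (0.170), at 2.18, 1.08 and 3.11 FPKM, and to Mbnl1 (0.190). The likeness is a description over 9 libraries in 3 groups.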

How the data were processed

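RNA of BV2 cells was sequenced in 9 libraries, which were assigned to 3 groups of 3 by the sample labels. According to the study's methods, adapter-bearing, ambiguous and low-quality reads were dropped, reads were counted per gene with featureCounts, and the authors computed FPKM from gene length and read count. The aligner is not given in the sources used here, strandedness is not stated, and the labels name the builds GRCm38 and mm10. The deposited FPKM gave whole reads for 100% of values above 0 after multiplication by gene length and 1 divisor per library (tolerance 0.05).

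A linear model with 1 mean for each group was fitted by limma 3.58.1 (R 4.3.3) to log2(FPKM + 0.1) over all 9 libraries, with a trended prior variance, for 16123 genes averaging 0.2 FPKM or more. Calls took the thresholds of the study, an unadjusted p under 0.01 with a log2 fold change beyond 0.5 in size, and p-values were adjusted over all genes by Benjamini-Hochberg. Fold changes on this scale understate those of low genes. On data simulated with normal noise for OGD against control, 200 of 16123 genes were changed, all drawn from genes averaging 1 FPKM or more. Of these, 98% of 4-fold and 91% of 2-fold changes were called, and 0.41% of unchanged genes were called. Recovery for genes below 1 FPKM was not simulated. Shares of the families were compared by two-sided exact permutation tests. Other steps used matplotlib 3.10.9, scipy 1.17.1, pandas 2.3.3 and numpy 2.4.6 in Python 3.11.15.

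All 10 members are named, as are the 2 genes most like each member, the 2 largest rises and falls per list among called genes averaging 1 FPKM or more, and neighbours that overlap a member. Nfil3, Cebpd, Mapk3, Crem, Map3k5 and Trib2 were named after their values were seen. The members and lists were chosen with earlier results of these data known. Alternatives were other pseudocounts, filters, scalings, thresholds and variance models, limma-voom on recovered reads, a replicate block and each library left out. The 9 members matched in RefSeq were all but Fosl1.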

Additional observations from a re-analysis of the deposited data

How the results depend on the processing

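The log2 fold changes of the 9 tested members in 3 comparisons were recomputed under 21 alternatives, 9 of them leaving out 1 library. Of the 567 values 554 kept their direction and their side of the threshold, 9 passed it in addition, 4 lost it and 0 reversed. Under several alternatives the fold change stays as it was by design, so its direction could not reverse. These were the filters, the variance models, the adjusted p, the replicate block, and leaving out a group or library outside the comparison. Among members, 3 rather than 1 were higher in OGD + A-485 against OGD with an adjusted p under 0.05 and no fold limit, Jun and Maff joining Fos, since the fold limit no longer applied. The calls lost were Jund in OGD + A-485 against OGD without the second OGD + A-485 library (-0.49) and, against control, Junb under quantile normalisation (0.42) and library totals (0.43) and Jun with the regional median subtracted (0.4996); the cause was not tested. With the replicate block 4 members were higher and 2 lower in OGD against control, as without it, and no call on a tested member changed with it. Without a filter on low values, 3 rather than 2 members were called lower in OGD + A-485 against control. Fosb, which the main fit left out, was the added member. Libraries of the same number had a mean correlation of -0.03 between their deviations over 9 pairs, so the numbers were not taken to pair libraries. limma-voom on the recovered reads called 1923 genes higher and 1681 lower in OGD against control. Depth limits Fosb, with 4 to 26 reads per library, and Batf, whose level in OGD + A-485 rests on 16 to 28 reads.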

Other observations

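Fos and Batf lie 209 kb apart on chromosome 12, with 4 annotated genes between them, of which 2 were tested. The AP-1 repressor gene Jdp2 lies there too and stood at 22.8, 22.9 and 22.5 FPKM in control, 21.03, 17.7 and 21.1 FPKM in OGD, and 24.2, 23.0 and 24.6 FPKM in OGD + A-485. Its 3 groups did not overlap, with OGD lowest, and it was called in no comparison. Gm47863, a non-coding gene at the Jdp2 start, was at about the same low level throughout, between 0.636 and 1.45 FPKM. Fos, Jdp2 and Batf are thus 3 bZIP genes of 1 region, of which Fos and Batf both fell in OGD and moved in opposite directions with A-485.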
